A study of Mus musculus with 2 samples.

Results

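The 10 genes described here encode transcription factors and products of the fat-related stromal cells of bone. They are the early B cell factor genes Ebf1, Ebf2, and Ebf3, the forkhead gene Foxc1, the adipogenic regulators Pparg and Cebpa, and Adipoq, Lpl, Lepr, and Apoe, which encode a secreted hormone, a lipase, a hormone receptor, and a lipid carrier. They were taken by symbol from the 32285 mouse genes of the deposited count matrices, 10 of 32285, and all 10 were found. The measurement was 10x 3′ single-cell RNA sequencing, whose counting unit is the unique molecular identifier (UMI), a tag that marks each captured transcript and removes PCR copies. The cells came from the periosteum, the membrane around the bone, of femurs and tibias of 4-week-old C57BL6 mice labeled WT, and were sorted on CD45, CD31, Ter-119, and DAPI. The 2 libraries were labeled as replicates of a single condition, and the labels do not say how many mice stood behind each. The p-values therefore measure the spread between these 2 libraries, which may be technical or lie between mice. UMIs of the reporter sequence EGFP were counted in library 2 alone, and whether the mice differed in genotype was not tested.

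Cells with at least 500 genes, at least 500 UMIs, and at most 10% mitochondrial UMIs were kept, which left 6276 of 9932 barcodes in library 1 and 2893 of 3659 in library 2, with medians of 8164 and 6279 UMIs per cell. The libraries stood apart in several ways. Although the sort used CD45, 47.5% of the kept cells of library 1 and 26.9% of those of library 2 had a UMI of Ptprc, the CD45 gene. Clustering placed more of them among hematopoietic cells, 5828 in library 1 and 1770 in library 2. It left 448 and 1123 stromal cells. Although the label is WT, library 2 held 6837 UMIs of the reporter sequence EGFP against 0 in library 1, and tdTomato had 4627 and 1482 UMIs. The libraries shared 7 kept barcodes. The other 3 features of the gene list are the reporters, which are not counted among the mouse genes.

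The cells were clustered with the 10 genes kept out of the variable genes and of all markers, and their levels therefore did not decide the clusters. Classes are called "-like" because the names were rebuilt from markers and the annotation made by the authors was not used here. CAR-like cells, for CXCL12-abundant reticular cells, the stromal cells that support blood formation in the marrow, numbered 62 in library 1 and 7 in library 2, which was 13.8% and 0.623% of the stromal cells. All 10 of 10 CAR markers, among them Cxcl12, Kitl, and Vcam1, were detected in this class in both libraries, at a summed 29769.5 and 17268.9 UMIs per 1000000 UMIs of the class (CPM) against 524 and 967 CPM in P-SSC-like cells. P-SSC-like cells, for periosteal skeletal stem cells, numbered 20 and 293, and UMIs of all 10 of their markers were detected in both libraries. They came from 2 clusters, of which the one led by Pi16 had all 10 markers raised over other cells and the one led by Mfap4 had 9, none of them among its 10 leading genes. The authors also named a Lepr-positive group of periosteal stem cells. Whether that group falls in the CAR-like class here was not tested, and P-SSC-like cells need not cover all cells the authors called P-SSCs. Osteoblast-like cells numbered 93 and 169, chondrocyte-like cells 27 and 119, tenocyte-like cells 12 and 105, and B-lineage-like cells 2672 and 1338. The larger osteoblast-like cluster was also led by the neutrophil genes S100a9, S100a8, Lyz2, and Camp, with S100a8 at 1703 CPM in osteoblast-like cells of library 1 and 11.5 CPM in library 2.

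EBF proteins are DNA-binding factors named for their role in B cell development, and the same family also acts in mesenchymal cells and in the early steps of fat cell formation. PPARγ and C/EBPα form the core switch of adipogenesis, and C/EBPα also directs myeloid development. In bone marrow, stromal cells that express the leptin receptor and CXCL12 are known to hold transcripts of fat cell genes without being fat cells, and EBF1, EBF3, and FOXC1 are known for a role in keeping this cell type.

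On GRCm38, with the GENCODE M21 annotation, all 10 are protein-coding genes. Ebf1 (ENSMUSG00000057098) lies at chr11:44617317-45008091, Ebf2 (ENSMUSG00000022053) at chr14:67233292-67430918, Ebf3 (ENSMUSG00000010476) at chr7:137193673-137314445, and Foxc1 (ENSMUSG00000050295) at chr13:31806633-31812476. Pparg (ENSMUSG00000000440) lies at chr6:115360951-115490399 and Cebpa (ENSMUSG00000034957) at chr7:35119293-35121928. Adipoq (ENSMUSG00000022878) lies at chr16:23146536-23158028, Lpl (ENSMUSG00000015568) at chr8:68880491-68907448, Lepr (ENSMUSG00000057722) at chr4:101717404-101815352, and Apoe (ENSMUSG00000002985) at chr7:19696109-19699188. Ebf3 and Apoe lie on the minus strand and the others on the plus strand.

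RefSeq promoters (GRCm38.p6) were at hand for 8 of the 10 genes, all but Ebf2 and Lpl. The 250 bases before each start were searched on both strands for the letters TCCC and GGGA with any 2 bases between (EBF), GTAAACA (forkhead), TTGCNNAA (C/EBP), and AGGTCA repeated in the same direction with any 1 base between (PPAR with its partner), which were present in 0.779%, 3.17%, 9.56%, and 0.0335% of 32851 promoter windows. The only window of the 8 genes with a match was the one before the start of Pparg that is known for the fat cell isoform (chr6:115421816-115422065, plus strand), which held the C/EBP letters at 2 places. It is shown with these matches in capitals, above the window of Adipoq (chr16:23146286-23146535, plus strand), shown because most UMIs of that gene fell in a single class and because it held no match.
Pparg: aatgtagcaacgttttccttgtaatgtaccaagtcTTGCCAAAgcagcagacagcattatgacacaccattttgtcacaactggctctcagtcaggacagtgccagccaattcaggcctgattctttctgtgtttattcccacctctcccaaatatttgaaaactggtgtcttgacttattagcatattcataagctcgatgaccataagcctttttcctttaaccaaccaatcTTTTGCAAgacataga
Adipoq: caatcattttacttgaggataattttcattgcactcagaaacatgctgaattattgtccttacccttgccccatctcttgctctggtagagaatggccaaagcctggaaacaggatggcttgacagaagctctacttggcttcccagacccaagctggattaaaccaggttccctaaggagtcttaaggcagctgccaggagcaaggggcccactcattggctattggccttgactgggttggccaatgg
A match of letters is a description of the window and not a measured binding site, and none of the data here measure binding.

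Adipoq, which encodes the hormone adiponectin, was measured mostly in CAR-like cells. It stood at 3382 CPM (95% Poisson interval 3213 to 3557) in CAR-like cells of library 1 and at 1878 CPM (1456 to 2385) in library 2. In the same order of libraries, 98.4% and 85.7% of CAR-like cells had a UMI of it. CAR-like cells held 86.3% of the 1746 Adipoq UMIs of library 1 and 94.4% of the 71 of library 2. P-SSC-like, tenocyte-like, and chondrocyte-like cells had 0 UMIs in both libraries. Measured against a floor of 3 UMIs, the level in CAR-like cells was thus at least 297-fold higher than in P-SSC-like cells of library 1 and at least 1722-fold higher in library 2. Osteoblast-like cells stood at 22.8 CPM in library 1, from 58 UMIs in 4 cells, and at 0 in library 2. Other values in library 1, all with 0 UMIs in library 2, were 499 CPM in a stromal cluster led by B cell genes (63 UMIs in 3 cells), 150 CPM in an unnamed cluster led by Mmp9 (61 UMIs in 6 cells), and 53.4 CPM in skeletal muscle-like cells (11 UMIs in 1 cell). Of the 58 UMIs of osteoblast-like cells, 56 came from 2 cells, which each had UMIs of all 10 genes, together with 186 and 204 UMIs of Cxcl12 and 1 and 0 UMIs of the osteoblast gene Bglap. Intervals given here for levels and shares are exact and cover counting error only.

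Lepr encodes the leptin receptor, by which this marrow cell type is usually recognized. Its level was 817 CPM (735 to 905) and 617 CPM (387 to 934) in CAR-like cells of libraries 1 and 2, and 95.2% and 85.7% of the cells had a UMI. The next levels among named stromal classes were 18.5 and 23.3 CPM in osteoblast-like cells, 0 and 27.5 CPM in tenocyte-like cells, and 7.60 and 13.8 CPM in P-SSC-like cells. These 3 classes overlapped or lay close to each other, and all lay far below CAR-like cells. An unnamed stromal cluster led by Mmp9 and by cell cycle genes such as Mki67 stood between, at 165 and 92.3 CPM. Chondrocyte-like cells had 0 and 3 UMIs.

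Lpl, which encodes lipoprotein lipase, the enzyme that frees fatty acids from circulating lipoproteins, was detected in every CAR-like cell. In libraries 1 and 2 it reached 5002 CPM (4796 to 5214) and 1738 CPM (1333 to 2228). P-SSC-like cells stood at 152 and 205 CPM and skeletal muscle-like cells at 214 and 18.9 CPM. Within P-SSC-like cells, the cluster led by Mfap4, Apod, and Eln (4 and 126 cells) stood at 410 and 363 CPM and the cluster led by Pi16 and Mfap5 (16 and 167 cells) at 96.9 and 113 CPM, without overlap between the libraries of the 2 clusters. An unnamed cluster of 8 and 23 cells led by Rgs5, Fabp4, and Acta2, in which all 7 endothelial markers were also raised, stood at 1298 and 331 CPM. In chondrocyte-like cells Lpl was at 6.60 and 6.99 CPM.

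Apoe, which encodes apolipoprotein E, a carrier of lipids outside the cell, was high in CAR-like cells and in several other classes. It stood at 3220 CPM (3056 to 3391) and 3925 CPM (3302 to 4631) in CAR-like cells. Among P-SSC-like cells the libraries differed, with 26.6 CPM in library 1 and 441 CPM in library 2, and a UMI in 20% and 44.0% of the cells. The difference between the libraries was present in each of the 2 P-SSC-like clusters, at 13.8 against 199 CPM in the cluster led by Pi16 and at 86.2 against 851 CPM in the cluster led by Mfap4. Tenocyte-like cells stood at 435 and 525 CPM, and an unnamed cluster led by Msmp, Cytl1, and Prg4, present in library 2 alone, reached 3422 CPM. Osteoblast-like cells, at 23.6 and 4.74 CPM, lay below chondrocyte-like cells, at 38.5 and 185 CPM, in both libraries.

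Pparg, the master regulator of fat cell formation, was low in count and stood highest in CAR-like cells among the named classes. The level was 139 CPM (107 to 178) from 62 UMIs in library 1 and 84.1 CPM (17.3 to 246) from 3 UMIs in library 2. In P-SSC-like cells it was at 3.80 and 1.82 CPM, from 1 and 5 UMIs, and in tenocyte-like cells there were 0 UMIs. The cluster led by Rgs5 and Acta2 again stood near CAR-like cells, above them in library 1, at 228 and 58.4 CPM from 10 and 9 UMIs. In CAR-like cells, 50% of the cells of library 1 had a UMI of Pparg, whereas the 3 UMIs of library 2 all came from 1 cell of 7.

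Cebpa, which encodes C/EBPα, differed more between the libraries. CAR-like cells of the 2 libraries stood at 373 CPM (318 to 434) and 84.1 CPM (17.3 to 246). The shares of cells with a UMI were 77.4% and 42.9%. P-SSC-like cells were at 15.2 and 21.4 CPM and tenocyte-like cells at 37.0 and 11 CPM. Osteoblast-like cells at 10.2 and 5.41 CPM and chondrocyte-like cells at 7.70 and 6.71 CPM were not separable from each other by their ranges.

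**Figure D1:**
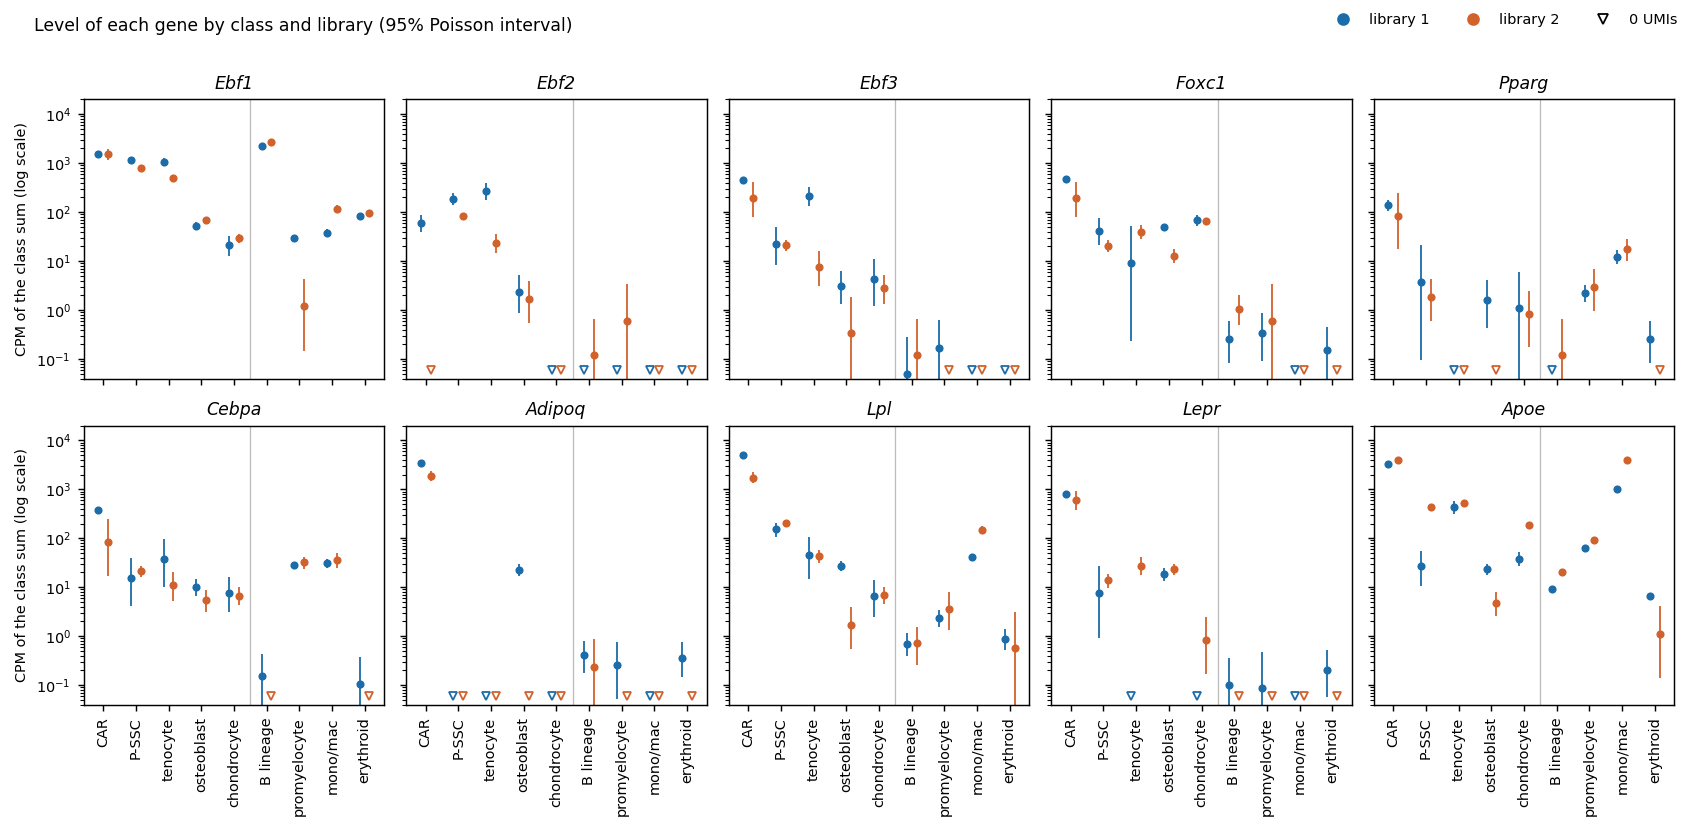
Level of each of the 10 genes (CPM of the class sum, log axis) in 5 stromal classes, left of the gray line, and 4 hematopoietic classes, right of it, 1 point per library with its exact 95% Poisson interval and open triangles for 0 UMIs. Among the stromal classes drawn, Adipoq, Lepr, Pparg, Cebpa, Ebf3, and Foxc1 stand highest in CAR-like cells within each library, whereas Ebf1 is high also in P-SSC-like and tenocyte-like cells. Ebf2 is lower in CAR-like than in P-SSC-like cells of library 1. In library 2 the 0 UMIs of Ebf2 in CAR-like cells have an upper limit of 103 CPM, above the 85.4 CPM of P-SSC-like cells.

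The 3 EBF genes divided the stromal classes differently. Ebf1 was shared, at 1548 CPM (1435 to 1668) and 1514 CPM (1137 to 1975) in CAR-like cells, 1151 and 795 CPM in P-SSC-like cells, and 1045 and 489 CPM in tenocyte-like cells. P-SSC-like and tenocyte-like cells overlapped in these levels. Osteoblast-like cells at 51.9 and 69.7 CPM and chondrocyte-like cells at 20.9 and 29.3 CPM did not exceed erythroid-like cells, which should lack the gene and stood at 85.3 and 97 CPM. Their shares of cells with an Ebf1 UMI, 59.1% and 53.8% in osteoblast-like and 40.7% and 37.0% in chondrocyte-like cells, rest on deep cells with medians between 16961 and 34081 UMIs, against 12062.5 and 10540 in erythroid-like cells, of which 13.8% and 10.5% had a UMI. Thinned to 1000 UMIs per cell, the expected shares were 5.65% and 9.37% in osteoblast-like and 1.78% and 2.70% in chondrocyte-like cells. They were 6.38% and 6.76% in erythroid-like and 66.3% and 65.8% in CAR-like cells. Shares at equal depth do not show where the UMIs came from. Whether the Ebf1 UMIs of osteoblast-like and chondrocyte-like cells are background was not tested.

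Ebf2 showed another order. This gene, known as a marker of precursors of brown fat, stood at 190 and 85.4 CPM in P-SSC-like cells (50 and 235 UMIs). In tenocyte-like cells it differed between the libraries, at 268 CPM from 29 UMIs in 6 of 12 cells of library 1. Library 2 stood at 23.1 CPM there, from 21 UMIs in 8 of 105 cells. In CAR-like cells it was at 60.6 CPM in library 1 (27 UMIs). The 35671 UMIs of the 7 cells in library 2 held none, with an exact Poisson upper limit of 103 CPM. That limit lay above the 85.4 CPM of P-SSC-like cells in library 2. Chondrocyte-like cells held 0 UMIs in both libraries and osteoblast-like cells 6 and 5.

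Ebf3 followed CAR-like cells. It stood there at 465 CPM (403 to 532) and 196 CPM (78.9 to 404), from 207 and 7 UMIs, and in P-SSC-like cells at 22.8 and 21.1 CPM. The library 1 level was 20.4 times that in P-SSC-like cells (9.20 to 56.2) and the library 2 level 9.31 times (3.58 to 20.4). Tenocyte-like cells of library 1, 12 cells, reached 213 CPM, whereas those of library 2 stood at 7.71 CPM. Their cluster was named from both libraries together. Ebf4, another EBF gene, stood at 129 CPM (14 UMIs) in the 12 cells and at 7.71 CPM in library 2. Whether the 12 cells are of the same type as the tenocyte-like cells of library 2 was not tested.

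Foxc1 also stood highest in CAR-like cells, at 478 CPM (416 to 547) and 196 CPM (78.9 to 404), but was not as restricted. Chondrocyte-like cells held 68.2 and 66.8 CPM, with a UMI in 63.0% and 64.7% of the cells, and these levels hardly differed between the libraries. The unnamed Mmp9-led cluster stood at 150 and 60.8 CPM. P-SSC-like cells held 41.8 and 20.4 CPM and osteoblast-like cells 49.2 and 12.9 CPM, which overlapped. Erythroid-like cells, as a background, held 3 and 0 UMIs.

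The genes were found together in single cells. CAR-like cells of library 1 had UMIs of a median of 8 of the 10 genes (4 to 10), 44 of the 62 cells had at least 8, and 8 cells had all 10. The 7 cells of library 2 had a median of 7 (5 to 8), at a median of 3159 UMIs per cell against 7061.5 in library 1. P-SSC-like cells had a median of 3 in both libraries and none with 8 or more, although their median depths of 12388 and 9198 UMIs were larger. Lepr and Adipoq were detected together in 59 of 62 and 5 of 7 CAR-like cells and in 0 P-SSC-like cells. All 3 EBF genes were detected together in 16 of 62 and 0 of 7 CAR-like cells and in 3 of 20 and 28 of 293 P-SSC-like cells. Tenocyte-like cells, whose cluster was named from both libraries together, had them together in 6 of 12 and 3 of 105. Outside CAR-like cells, 9 cells with at least 8 of the genes were seen, all in library 1. They were 2 osteoblast-like cells, 3 of the Mmp9-led cluster, 3 of a cluster led by B cell genes, and 1 of a hematopoietic cluster. No doublets were removed.

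**Figure D2:**
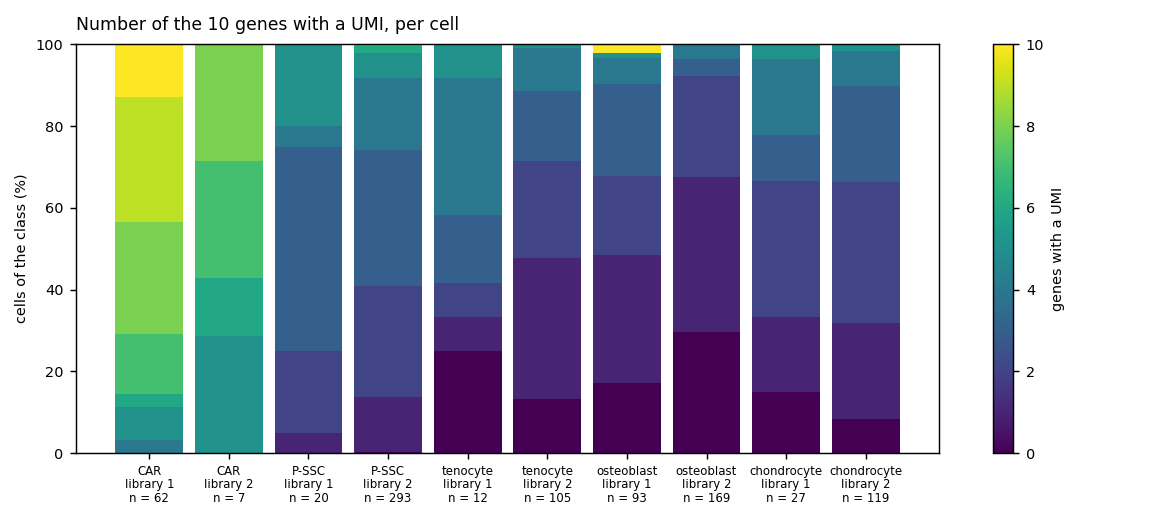
Percent of cells (vertical axis) by the number of the 10 genes with a UMI (color, 0 to 10) in each stromal class and library, with the number of cells under each bar. The bars of CAR-like cells start at 4 genes in library 1 and at 5 in library 2, whereas most cells of the other classes have 3 or fewer.

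Fat cell identity in CAR-like cells was checked by 3 genes of mature fat cells. Plin1, which coats the lipid droplet, had 9 UMIs in library 1, in 4.84% of the CAR-like cells, and 0 in library 2. Cfd, which encodes adipsin, had 5 and 0 UMIs. Fabp4, a fatty acid carrier, had 156 UMIs in 6.45% of the cells of library 1 and 1 UMI in library 2. The shares of Plin1 and Fabp4 in library 1 lay far below the 98.4% with Adipoq. In library 2, where 85.7% of the cells had a UMI of Adipoq, each of the 3 genes had at most 1 UMI.

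Which of these differences exceed the spread between the libraries was tested on UMIs summed per class and library (n = 2 libraries) with the quasi-likelihood test of edgeR and Benjamini-Hochberg adjustment over all genes tested. Since the 7 CAR-like cells of library 2 fell under the minimum of 10 cells that had been planned, the comparisons of CAR-like cells used a minimum of 5, which was chosen after the cell numbers were seen. Of 9775 genes tested, 3.58% passed an adjusted p of 0.05, of which equal numbers were higher and lower in CAR-like than in P-SSC-like cells (1.79% each). All 10 genes passed the filter on low counts. Pparg did so only through the CAR-like sums, and Adipoq without them only through sums of library 1 in which a few osteoblast-like cells and 1 skeletal muscle-like cell held its UMIs, so that the values of these 2 genes are given as descriptions. Of the other 8 genes, 2 were higher and none lower. Lepr was higher by 5.48 on the log2 scale (SE 0.93, adjusted p = 0.0068) and Cebpa by 3.32 (SE 0.77, adjusted p = 0.031). The value of Pparg was 5.27 (SE 0.96, adjusted p = 0.013), and that of Adipoq had an adjusted p of 0.026, with 0 UMIs in P-SSC-like cells. Cebpa rested more on library 1, with a log2 difference of 4.41 in that library alone and 1.07 in library 2 alone.

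Of the remaining 6 genes, Ebf3 (3.61, SE 1.09, adjusted p = 0.11), Foxc1 (3.27, SE 0.91, adjusted p = 0.069), Lpl (3.86, SE 1.10, adjusted p = 0.082), and Apoe (3.36, SE 1.12, adjusted p = 0.14) had large differences that did not pass. Foxc1 passed when the library was a block in the model (log2 difference 3.12, adjusted p = 0.046). Apoe differed by 6.75 in library 1 alone and by 2.26 in library 2 alone. Ebf1 differed by 0.29 (SE 0.62, adjusted p = 0.90) and Ebf2 by -1.85 (SE 0.98, adjusted p = 0.44).

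CAR-like cells of library 1 also carried 15946 CPM of 8 erythroid marker genes, against 280 CPM in library 2. In P-SSC-like cells, library 1 carried 6650 CPM of the neutrophil gene S100a8, against 13.1 CPM in library 2. An alternative added after seeing the data kept only the stromal cells in which at most 1% of UMIs came from B-lineage, immature neutrophil, and erythroid markers. It left 60 and 7 CAR-like and 19 and 290 P-SSC-like cells, and the log2 differences were 5.44 for Lepr, 5.26 for Pparg, and 3.28 for Cebpa. Few cells were thus removed, and S100a8 was not among these markers, so that this filter cannot show what its UMIs contribute.

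Against osteoblast-like cells, 6 of the same 8 genes were higher in CAR-like cells and none was lower. Of all genes tested 8.17% passed, 4.78% higher and 3.4% lower. The differences ran from 3.71 on the log2 scale for Ebf1 (SE 0.69, adjusted p = 0.0067) and 4.12 for Cebpa (SE 0.79, adjusted p = 0.0064) to 7.00 for Lpl (SE 1.28, adjusted p = 0.0067) and 7.03 for Apoe (SE 1.33, adjusted p = 0.0078), whose call was lost at clustering resolution 0.4 (adjusted p = 0.055). Pparg differed, as a description, by 6.26 (adjusted p = 0.0030). Ebf2 (3.56, SE 1.08, adjusted p = 0.072) and Foxc1 (2.62, SE 0.85, adjusted p = 0.081) did not pass. Both passed with the library as a block, at 3.06 (adjusted p = 0.046) and 2.66 (adjusted p = 0.039). Ebf2, however, differed by 3.51 in library 1 alone and by -2.95 in library 2 alone, where CAR-like cells held 0 UMIs. Adipoq, with a difference given as a description of 6.95 (SE 1.73, adjusted p = 0.041), carried the 56 UMIs of the 2 osteoblast-like cells with all 10 genes. These 2 cells also entered the library 1 sums of the other genes. They were among the 3 osteoblast-like cells of library 1 with a UMI of Pparg.

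Against chondrocyte-like cells, 7 of the same 8 genes were higher in CAR-like cells and none was lower, where 14.4% of all genes tested passed, 7.84% higher and 6.59% lower. The largest difference between classes that both held UMIs was that of Lepr (9.13, SE 1.14, adjusted p = 0.00033), followed by Lpl (8.13, SE 1.36, adjusted p = 0.0023). Apoe (4.09, SE 1.15, adjusted p = 0.034) lost its call at resolution 0.4 (adjusted p = 0.13). Pparg differed, as a description, by 6.07 (adjusted p = 0.0016). Adipoq (as a description, adjusted p = 0.0077) and Ebf2 (adjusted p = 0.0090) had 0 UMIs in chondrocyte-like cells. Ebf2 rested on the 27 UMIs of library 1, since neither class held a UMI in library 2. Foxc1 was the exception, with a difference of 1.59 (SE 0.83, adjusted p = 0.23). The 3 comparisons share the CAR-like sums, and apart from this Ebf2 difference every gene called higher in them was also higher in each library alone.

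Between P-SSC-like and osteoblast-like cells, 2 of the 10 genes were higher in P-SSC-like cells, both of them EBF genes, and none was lower. Of 9758 genes tested, 13.2% passed, with 8.24% higher and 4.95% lower. Ebf2 was higher by 5.41 on the log2 scale (SE 0.95, adjusted p = 0.0064) and Ebf1 by 3.42 (SE 0.66, adjusted p = 0.0057). Ebf2 stood at 80.5 times the osteoblast-like level in library 1 and 50.5 times in library 2. Pparg was too low to be tested, and the other 7 genes did not pass. Of those, Ebf3 (3.12, adjusted p = 0.13) and Lpl (3.15, adjusted p = 0.079) passed with the library as a block, at 3.80 (adjusted p = 0.038) and 3.72 (adjusted p = 0.041). Apoe differed by -0.57 in library 1 alone and by 6.1 in library 2 alone, and Lpl by 1.70 and 6.38. The osteoblast-like sums of library 1 held the 2 cells with UMIs of all 10 genes. Only 3 osteoblast-like cells of that library had a UMI of Lpl, and these 2 were among them. What these 2 cells contribute to the differences of Apoe and Lpl was not tested.

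**Figure D3:**
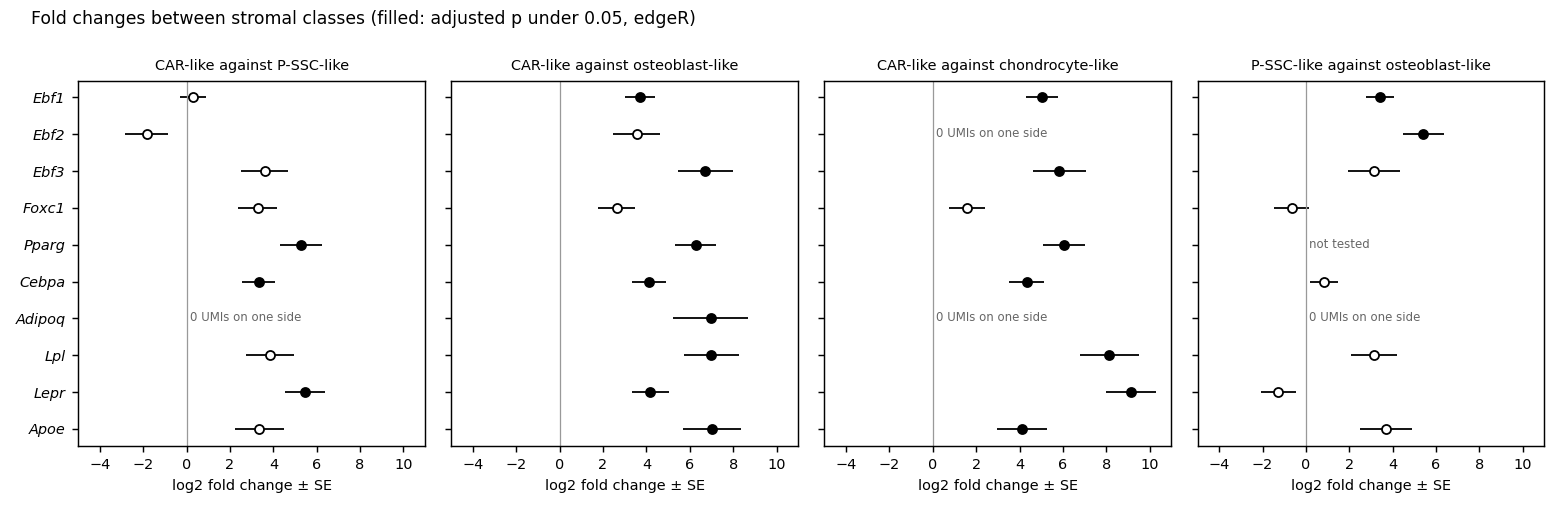
Fitted log2 difference of each gene (horizontal axis, with bars of 1 SE to each side) in the 4 comparisons of stromal classes, with filled points for an adjusted p under 0.05 and open points above it (edgeR, n = 2 libraries per class). Points of Pparg and Adipoq for CAR-like cells are descriptions, also where filled. Genes with 0 UMIs on one side and a gene that could not be tested are marked in words, and in CAR-like against P-SSC-like cells Ebf1 lies near 0 and Ebf2 below it.

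Other genes of fat metabolism were counted by list. The lists had not been kept out of the clustering, so that their p-values are descriptions. Of 24 genes of fat cells and fat storage, 15 were tested in CAR-like against P-SSC-like cells. None was higher and 1 was lower, Mgll, which encodes monoglyceride lipase (-4.48, adjusted p = 0.017), and the median difference of -0.05 was near that of all genes, -0.11. Among 11 tested adipogenic factors and cofactors none passed, with a median of 0.43. Of 12 tested genes of lipoprotein handling, Angptl4, which encodes an inhibitor of lipoprotein lipase, was higher (4.02, adjusted p = 0.022) and Apod was lower (-5.68, adjusted p = 0.034).

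Angptl4 stood at 202 and 140 CPM in CAR-like cells and 15.2 and 5.46 CPM in P-SSC-like cells, and was also higher against osteoblast-like cells (3.55, adjusted p = 0.015) and against chondrocyte-like cells (4.26, adjusted p = 0.0042). Of 12 genes of leptin and adiponectin signaling, Cdh13, which encodes T-cadherin, a binding protein for adiponectin, was lower in CAR-like than in P-SSC-like cells (-3.98, adjusted p = 0.049), at 6.73 and 56.1 against 270 and 111 CPM. In CAR-like cells 3 UMIs make 6.73 CPM in library 1 and 84.1 CPM in library 2, so that each CAR-like level rests on at most 3 UMIs. Against osteoblast-like cells, P-SSC-like cells had more Cdh13 (6.52, adjusted p = 0.00067).

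Among 10 tested partners of EBF and forkhead factors, Runx1 was higher in CAR-like than in P-SSC-like cells (3.72, adjusted p = 0.025), at 774 and 729 against 22.8 and 55.7 CPM. None was lower, and the median was 0.12. Against chondrocyte-like cells Runx1 (3.49, adjusted p = 0.011) and Foxp1 (4.04, adjusted p = 0.0023) were higher. Zfp521, which encodes a zinc finger protein known to bind EBF1 and hold back fat cell formation, was higher in P-SSC-like cells when these were set against osteoblast-like cells (2.44, adjusted p = 0.0060).

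In the hematopoietic cells of the libraries, Ebf1 was highest in B-lineage-like cells. B cell development is known to need EBF1, and the class carried it at 2293 CPM (2272 to 2314) and 2720 CPM (2685 to 2755), with a UMI in 99.3% and 99.0% of cells. Thinned to 1000 UMIs, 88.4% and 88.9% of cells were expected to have one. The level was higher than the mean of the myeloid classes by 5.17 on the log2 scale (SE 0.69, edgeR adjusted p = 4.7e-05), in a comparison in which 49.5% of 10683 genes passed and 31.9% were higher. Ebf2, Ebf3, Foxc1, Adipoq, and Lepr, 5 of the 10 genes, did not pass the filter on low counts in the hematopoietic comparisons and were not tested. Mature neutrophil-like cells stood at 169 and 75.7 CPM, monocyte/macrophage-like cells at 37.9 and 119 CPM, and promyelocyte-like cells at 29.6 and 1.21 CPM. These myeloid levels lay on both sides of those of erythroid-like cells, and their order differed between the libraries. Ebf2, Ebf3, and Pparg each had at most 1 UMI in the B-lineage-like cells of a library.

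Within the B lineage the level of Ebf1 moved with the cluster. It was highest in a pro-B-like cluster led by Vpreb1, Igll1, and Dntt, at 4244 and 4767 CPM, and in a cluster led by light chain and Rag1 transcripts, at 4328 and 4533 CPM. These 2 clusters overlapped. Next came the mature B-like cluster at 2194 and 1812 CPM and a pro-B-like cluster with cell cycle markers at 2073 and 2042 CPM. A resting pre-B-like cluster stood at 1960 and 2262 CPM, and these clusters overlapped each other. Another pro-B-like cluster, led by Bfsp2, Igll1, and Nrgn and with medians of 28013 and 15622 UMIs per cell, was lowest at 903 and 1411 CPM. CAR-like cells, at 1548 and 1514 CPM, thus held Ebf1 at a level between those of B-lineage-like clusters.

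Of 12 genes known as partners or targets of EBF1 in B cells, 11 were higher in B-lineage-like than in myeloid classes, against 31.9% of all genes, and none was lower, with a median of 4.40 against 0.38 over all genes. Lef1 (5.75, adjusted p = 1.6e-06) and Pax5 (4.46, adjusted p = 6.2e-05), the factor that commits B cells, were among them. Both had 0 UMIs in CAR-like cells of both libraries, and in P-SSC-like cells Lef1 had 0 and 1 UMIs and Pax5 had 0.

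Cebpa showed another order in blood cells. Promyelocyte-like cells held it at 28.9 and 32.0 CPM (338 and 53 UMIs), with a UMI in 38.1% and 43.8% of cells, and monocyte/macrophage-like cells at 31.0 and 35.9 CPM. Immature neutrophil-like cells stood at 4.57 and 7.88 CPM and mature neutrophil-like cells at 5.15 and 5.41 CPM, which lay below the former 2 classes in both libraries. B-lineage-like cells, with 3 and 0 UMIs, gave the background at 0.151 CPM and 0, although the median depth of 3849.5 and 4004 UMIs was lower there than the 28909 and 34463.5 of promyelocyte-like cells. Thinned to 1000 UMIs, the expected shares were 2.18% and 3.49% in promyelocyte-like and 3.28% and 3.26% in monocyte/macrophage-like cells, against 0.0209% in B-lineage-like cells of library 1. T/NK-like cells held 32.0 and 18.2 CPM. The level in CAR-like cells, 373 and 84.1 CPM, was above each of these hematopoietic classes in library 1. In library 2 it rested on 3 UMIs, and its interval of 17.3 to 246 CPM covered the levels of promyelocyte-like, monocyte/macrophage-like, and T/NK-like cells.

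Cebpa was lower in B-lineage-like cells than in the mean of the myeloid classes (log2 difference -7.26, SE 0.66, adjusted p = 1.6e-06), where 17.6% of genes were lower. Lpl (-3.38, SE 0.77, adjusted p = 0.0018) and Apoe (-3.02, SE 0.68, adjusted p = 0.0022) were lower too, the latter not without integration of the libraries (-1.20, adjusted p = 0.085). Of 12 partners and targets of C/EBPα in myeloid cells, 8 were lower in B-lineage-like cells, and the median of the 12 was -3.41. The lower genes were led by Cd14 (-10.13, adjusted p = 2.1e-05), Cebpd (-7.81, adjusted p = 3.2e-07), and Cebpe (-7.22, adjusted p = 2.7e-05). Cebpe served as a marker in naming the immature neutrophil-like cells, so that its difference is a description. Irf8 (2.09, adjusted p = 0.0023) and Gfi1 (1.36, adjusted p = 0.020) were higher.

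Among myeloid cells, Apoe and Lpl were highest in monocyte/macrophage-like cells. In the comparison with the mean of the neutrophil classes, where 33.2% of genes passed, 24.5% higher and 8.78% lower, Apoe (6.0, SE 0.56, adjusted p = 1.1e-05), Lpl (4.98, SE 0.58, adjusted p = 2.6e-05), and Cebpa (1.13, SE 0.42, adjusted p = 0.048) were higher. The difference of Pparg, whose UMIs among the hematopoietic classes lay mostly in these cells was, as a description, 4.77 (SE 0.92, adjusted p = 0.0010). Apoe stood at 996 and 3976 CPM in these cells, with a UMI in 50.4% and 64.9% of them. Lpl stood at 41.0 and 150 CPM, and Pparg at 12.4 and 17.4 CPM from 40 and 16 UMIs. The call of Cebpa was lost in DESeq2 (adjusted p = 0.056), without a filter on low counts (0.062), and at resolutions 0.4 (0.22) and 1.2 (0.077). Ebf1 did not pass (0.37, SE 0.82, adjusted p = 0.77), with -1.33 in library 1 alone and 5.10 in library 2 alone. Of 11 tested genes of lipoprotein handling, 7 were higher and 1 was lower, led by Pltp (7.82, adjusted p = 5.6e-05), which encodes phospholipid transfer protein, and Lrp1 (4.16, adjusted p = 0.00019), which encodes a receptor that takes up apolipoprotein E. Their median was 1.98 against 0.42 over all genes.

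**Figure D4:**
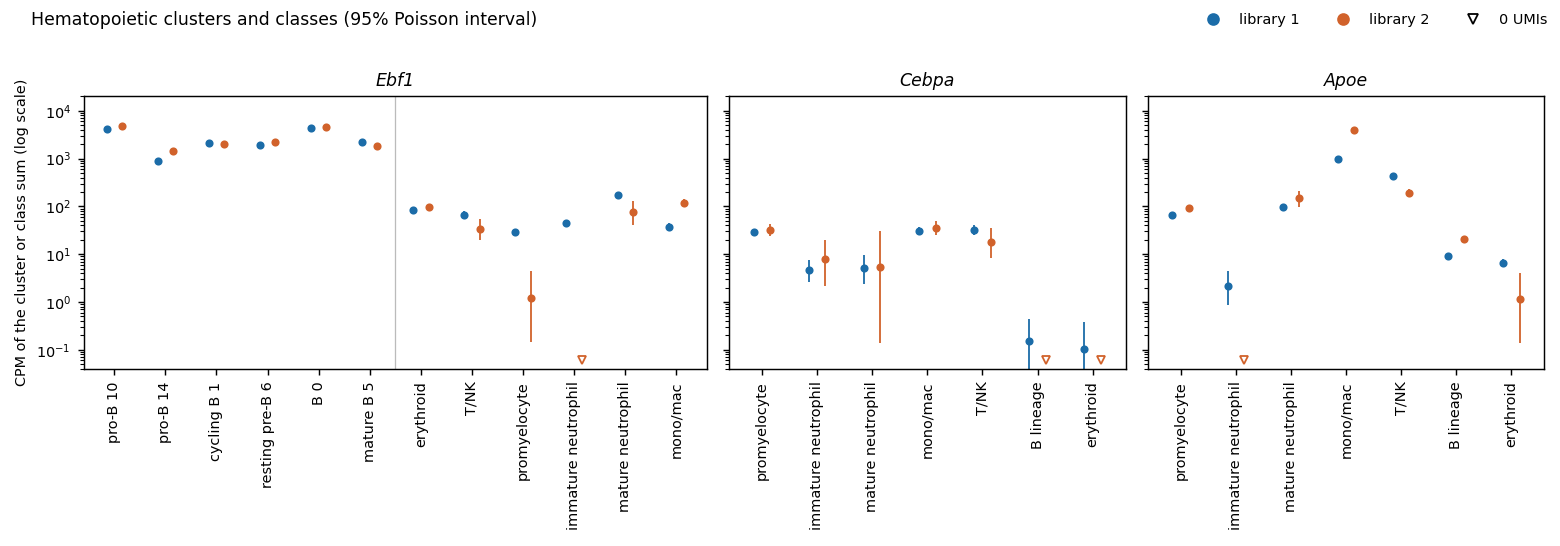
Level of Ebf1 in the 6 B-lineage-like clusters (left of the gray line, with their cluster numbers) and in other hematopoietic classes, and of Cebpa and Apoe in hematopoietic classes (CPM, log axis), 1 point per library with its exact 95% Poisson interval and open triangles for 0 UMIs. All B-lineage-like clusters stand at 903 CPM of Ebf1 or above and the other classes at 169 CPM or below, Cebpa is at or near 0 in B-lineage-like and erythroid-like cells, and Apoe is highest in monocyte/macrophage-like cells.

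The genes whose pattern was most like that of each of the 10 were found by Pearson's r of log2(CPM + 10) across 26 sums of 13 classes in 2 libraries, over 9459 genes. The sums share their libraries and differ in depth, and those of CAR-like cells hold 62 and 7 cells, so that r is a description. Closest to Adipoq were Marc1 (r = 0.994), Wdr86 (0.980), and Kng1 (0.976), and closest to Lepr were Gm15222 (0.984), Ackr4 (0.980), and Kcnk2 (0.970). Closest to Ebf3 were Msc (0.980), Id4 (0.976), and Pappa (0.964), and closest to Foxc1 were Snai2 (0.956), Ddr1 (0.955), and Dlc1 (0.944). Lpl was closest to Gas6 (0.917), Cxcl12 (0.916), and Vcam1 (0.897), which served as CAR markers.

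For Pparg, Tmem86a (0.958), Fblim1 (0.938), and the CAR marker Gdpd2 (0.938) came first, and for Ebf2, Nectin1 (0.973), Ret (0.945), and Tmod2 (0.944). The highest values for the other 3 genes were lower. They were E4f1 (0.859), Marcks (0.845), and Tmem106b (0.840) for Ebf1, Vcam1 (0.880), Plxnd1 (0.856), and Plppr3 (0.847) for Cebpa, and Map3k14 (0.860), Cxcl16 (0.792), and Plxnd1 (0.778) for Apoe. Among the 10 themselves, Adipoq was closest to Lepr (0.925) and Pparg (0.885), Foxc1 and Lepr had an r of 0.823, and the lowest value with Adipoq was that of Ebf2 (0.127). These values rest on the 2 CAR-like sums. Over the other 24 sums, r was 0.258 for Adipoq and Lepr, -0.117 for Adipoq and Pparg, and 0.560 for Foxc1 and Lepr. The nearest genes changed too, to Rbfox1 (0.719) for Adipoq, Cdh11 (0.927) for Lepr, Stmn4 (0.971) for Ebf3, and Trem2 (0.953) for Pparg. The highest of these sums was itself small for several genes. Adipoq was highest at 53.4 CPM in skeletal muscle-like cells of library 1, from 11 UMIs in 1 cell. Ebf3 was highest at 213 CPM in tenocyte-like cells of library 1, from 23 UMIs in 7 of 12 cells. Ebf2 was highest at 268 CPM in the same 12 cells, from 29 UMIs in 6 of them. That sum stayed the highest for Ebf2 with the CAR-like sums included. Pparg was highest at 17.4 CPM in monocyte/macrophage-like cells of library 2, from 16 UMIs, and Cebpa at 37.0 CPM in tenocyte-like cells of library 1. After Stmn4, the genes nearest to Ebf3 over these sums were Syt11 (0.968) and Stmn2 (0.966).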

How the data were processed

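The authors aligned and counted the reads of the 2 libraries with Cell Ranger, and the deposited matrices hold raw UMI counts per gene and barcode. The submitters' processing notes name Cell Ranger 6.1.2 and the build mm10. Of 32285 gene identifiers, 32158 were found in GENCODE M21, which gave the coordinates. Both libraries were joined by canonical correlation analysis in Seurat 5.3.0 under R 4.3.3 (3000 variable genes, 15 principal components), and clusters were made at resolution 0.8. Hematopoietic clusters were set aside and the stromal cells clustered again. Clusters were named for the class whose markers were found in the largest part, a found marker having a log2 fold of at least 1 and a UMI in at least 20% of cells. No doublets were removed.

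UMIs were summed per class and library. Stromal and hematopoietic classes were fitted separately with edgeR 4.0.16 (filterByExpr, TMM, quasi-likelihood test), with Benjamini-Hochberg adjustment over all genes tested and a threshold of 0.05. The test was tested on simulated data. The depth of the sums sets the precision. The 7 CAR-like cells of library 2 hold 35671 UMIs, of which 3 are 84.1 CPM, and those of library 1 hold 445624. Sums of the same library share a number by construction. Their deviations from the class means were correlated at 0.049 to 0.352 in stromal and 0.0887 to 0.473 in hematopoietic classes, and the blocked values are given where they change a call. Alternatives were DESeq2 1.42.0, no filter on low counts, other resolutions, no integration, the 10 genes among the variable genes, at most 5% mitochondrial UMIs, a block for the library, each library alone, and thinning to 1000 or 2000 UMIs.

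Named beside the 10 genes were at most 4 genes per list and comparison with the largest differences past the threshold, the 3 genes most like each of the 10, and genes of mature fat cells. Leading genes of clusters and S100a8 were chosen after their values were seen. The 10 genes and the lists were chosen with earlier results of these data known.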

Additional observations from a re-analysis of the deposited data

Results flagged for a closer look

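Reporter sequences were outside the comparisons and were not at 0 in libraries labeled wild type. EGFP had 6837 UMIs in the kept cells of library 2 and 0 in library 1. The tdTomato sequence had 1482 UMIs in library 1 and 4627 in library 2. CAR-like cells of library 2 held 0 UMIs of EGFP and 7 of tdTomato, and P-SSC-like cells of that library held 31 and 1466.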

How the results depend on the processing

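The values of the 10 genes were recomputed with a test, and those of Pparg and Adipoq are counted here although they are descriptions. Of all these values, 469 kept their direction and their side of the threshold, 57 gained a call, 18 lost it, and 1 turned direction. The last was Ebf1 in monocyte/macrophage-like against neutrophil classes, at -1.57 at resolution 1.2 (adjusted p = 0.26) against 0.37. In CAR-like against P-SSC-like cells, the call of Cebpa (adjusted p of 0.081 and 0.093) was lost at resolution 0.4 and with the 10 genes among the variable genes. The CAR-like class numbered 82 and 39 or 83 and 38 cells there. As descriptions, the adjusted p of Pparg (0.063 and 0.057) and of Adipoq (0.066 and 0.10) also lay above the threshold at these settings. The same settings lost Adipoq against osteoblast-like cells (0.17 and 0.18) and Apoe against chondrocyte-like cells (0.13 and 0.084). DESeq2 lost Adipoq against P-SSC-like (0.17) and osteoblast-like cells (0.53). The other 6 losses are given in the report. DESeq2 called Ebf3 (0.027), Foxc1 (0.0046), Lpl (0.0029), and Apoe (0.011) higher than in P-SSC-like cells. In each library alone, 57 values of the 10 genes moved by less than the spread and 39 by more, and of the thinned shares of cells 25 stayed within their interval and 31 moved. Of the counts of called genes, 124 stayed within 1.5 times and 12 moved. Without integration, 429 genes were higher and 468 lower in CAR-like than in P-SSC-like cells (175 and 175), 691 were lower than in osteoblast-like cells (332), 987 lower than in chondrocyte-like cells (644), and 812 lower in P-SSC-like than in osteoblast-like cells (483). At resolution 0.4, 303 were higher and 177 lower in CAR-like than in osteoblast-like cells (467 and 332), and at resolution 1.2, 948 were higher in monocyte/macrophage-like cells (2613). With the library as a replicate block, 555 were lower in CAR-like than in osteoblast-like cells and 1449 lower in monocyte/macrophage-like cells (938), and the block changed no call of the 10 genes other than the 5 given in the report. With few hematopoietic UMIs, P-SSC-like against osteoblast-like cells had 1307 higher and 903 lower genes (804 and 483). The cause of these changes was not tested. Minimum cell number, few hematopoietic UMIs, and edgeR without its bias adjustment were added after seeing the data. Each library alone leaves no residual spread, so that these values have no test and the counts have none. Without integration the monocyte comparison could not be made. The planned minimum of 10 cells left no comparison of CAR-like cells. Depth limits Pparg and Cebpa in CAR-like cells of library 2, with 3 UMIs each.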

Other observations

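Other genes of the lists differed in blood cells. Ppargc1a, which encodes the coactivator PGC-1α, was higher in B-lineage-like than in myeloid classes (log2 difference 6.53, edgeR adjusted p = 4.5e-05), as was Scd1, a fatty acid desaturase (4.09, adjusted p = 6.3e-06). Dgat2 (-5.76, adjusted p = 4.1e-06) and Dgat1 (-4.61, adjusted p = 1.1e-05), which make triglycerides, were lower there. Of 10 tested genes of leptin and adiponectin signaling, 8 were lower in B-lineage-like cells, against 17.6% of all genes, with Adipor1 at -2.32 (adjusted p = 7.4e-05) and Stat3 at -2.13 (adjusted p = 0.0011), and a median of -1.54 against 0.38 over all genes. In monocyte/macrophage-like against neutrophil classes, Lpin1 (3.73, adjusted p = 0.00021) and Fasn (3.13, adjusted p = 0.00028) were higher, and Mgll (-4.72, adjusted p = 0.00029) was lower.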
